A study of Mus musculus with 8 samples.

Results

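The 10 genes described here encode the scaffold of the cornified envelope (Lor, Ivl, Evpl, Ppl and Cnfn), the transglutaminases that crosslink it (Tgm1, Tgm3 and Tgm5), and a pair of proteases that process filaggrin (Casp14 and Asprv1). They were taken by name from a list of 5 scaffold, 3 crosslinking and 2 processing genes, and all 10 were found among the 21690 genes of the expression table. The experimental epidermis came from pups carrying K5rTA and tetOCre transgenes with Esrp1flox/flox and Esrp2-/- alleles (4 libraries), and the control epidermis from pups with Esrp1flox/flox and Esrp2-/- alleles, with no transgene listed (4 libraries). In both groups the dam had been fed doxycycline chow from embryonic day 17 to postnatal day 5, and back-skin epidermis was taken on that last day. Both groups carried the Esrp2-/- alleles, and the comparison addressed what a further loss of Esrp1, driven from a keratin 5 promoter together with the transgenes themselves, does to these transcripts. That promoter is active in basal keratinocytes, so the deletion is set in cells below the layers that express most of the 10 genes.

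The cornified envelope is the protein shell that replaces the plasma membrane of a keratinocyte as it becomes a dead corneocyte. Envoplakin, periplakin and involucrin are laid down first under the membrane, transglutaminases join them by isopeptide bonds, and loricrin is added later as the main reinforcing protein. In the same granular layer, profilaggrin is cut to filaggrin, which bundles keratin filaments and is then broken down to the small molecules that keep the surface moist.

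Transcript levels were given as TPM, a unit scaled by transcript length and by the library's total that lets genes be compared with each other but keeps no sequencing depth, so the depth was unknown. Between 10401 and 11077 genes lay above 1 TPM in experimental libraries and between 10523 and 11640 in control libraries. Esrp1 stood at 65.0, 49.8, 75.6 and 66.5 TPM in experimental libraries 1 to 4, against 135, 131, 133 and 162 TPM in control libraries 1 to 4 (limma adjusted p = 0.0112 over all genes). Esrp2 was still listed, at 4.98, 3.25, 5.28 and 4.22 TPM in experimental libraries and at 3.07, 0, 2.14 and 3.31 TPM in control libraries (limma adjusted p = 0.176), and whether these reads come from the deleted part of the gene cannot be told from a level per gene. The keratinocyte marker Krt10, chosen after its values were seen, read 20206 to 29564 TPM in experimental and 10269 to 20967 TPM in control libraries. Of 11 tested spinous and granular markers, 7 had log2 changes above 0 and 4 below, and Calml3 fell (limma adjusted p = 0.00847). Krt2, of the same list, was listed at 0 in 5 libraries and was at most 2.03 TPM. The 5 endothelial markers were listed at 0 in every library. Of 8 fibroblast markers, Lum and Pdgfra were listed at 0 throughout and Col1a1, Col1a2 and Col3a1 stayed under 2 TPM, whereas Vim (31.5 to 55.2 TPM in experimental and 20.7 to 82.7 TPM in control libraries) and Sparc (22.9 to 59.96 and 5.09 to 60.8 TPM) were present in all 8 and Dcn reached 24.7 TPM in control library 1. The libraries differed in ways no label explains. Mitochondrial transcripts took 18.2% and 17.5% of the TPM in experimental libraries 2 and 4, and between 10.6% and 12.6% in the remaining 6 libraries. The summed level of 20 hair follicle markers was 1888 to 13860 TPM in experimental libraries and 8205, 17513, 29343 and 60710 TPM in control libraries 1 to 4. All 13 basal keratinocyte markers had log2 changes below 0 and 2 of them fell. Of all genes tested, 25.5% were above 0 and 1.54% fell. The summed level of the basal markers was 1771 to 3043 TPM in experimental libraries and 8141, 6947, 2879 and 936.5 TPM in control libraries 1 to 4. All 10 sebaceous gland markers were below 0 as well and 2 fell. Cell cycle markers summed to 90.6 to 94.8 TPM in experimental libraries and 289, 188, 76.4 and 37.5 TPM in control libraries, so control libraries 1 and 2 stood above all others for both basal and cell cycle markers. The part of these lists in the results was not tested. The Y-linked gene Eif2s3y read 34.3 and 51.4 TPM in experimental libraries 1 and 3 and 54.5 TPM in control library 4, and was listed at 0 in the other 5. The tissue was sequenced in bulk, so fewer cells of a type and less RNA per cell cannot be told apart.

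Promoters of Ivl, Lor and Tgm5 are shown because Ivl and Tgm5 were the members whose groups did not overlap, in opposite directions, and because Lor is the most abundant member and lies 488 kb from Ivl in the epidermal differentiation complex of chromosome 3. Each run covers 250 bases before and 50 bases after the RefSeq transcription start on GRCm38.p6, on the minus strand and 5′ to 3′. Capitals mark matches, on either strand, to an AP-1 site (TGANTCA), a grainyhead site (AACNGGTT) or a TATA box (TATAAA).
Ivl, chr3:92573686-92573985: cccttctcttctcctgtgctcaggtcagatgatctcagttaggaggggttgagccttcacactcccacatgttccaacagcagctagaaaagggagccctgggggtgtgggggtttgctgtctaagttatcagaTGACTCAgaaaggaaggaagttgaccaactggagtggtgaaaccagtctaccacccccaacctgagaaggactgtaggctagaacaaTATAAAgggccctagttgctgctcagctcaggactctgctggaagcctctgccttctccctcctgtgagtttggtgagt
Lor, chr3:92083093-92083392: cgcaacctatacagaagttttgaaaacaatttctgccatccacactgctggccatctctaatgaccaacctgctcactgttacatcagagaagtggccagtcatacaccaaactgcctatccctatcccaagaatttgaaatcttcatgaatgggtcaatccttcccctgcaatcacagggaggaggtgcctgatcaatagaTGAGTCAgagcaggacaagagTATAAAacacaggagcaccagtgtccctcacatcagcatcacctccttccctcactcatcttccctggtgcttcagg
Tgm5, chr2:121085792-121086091: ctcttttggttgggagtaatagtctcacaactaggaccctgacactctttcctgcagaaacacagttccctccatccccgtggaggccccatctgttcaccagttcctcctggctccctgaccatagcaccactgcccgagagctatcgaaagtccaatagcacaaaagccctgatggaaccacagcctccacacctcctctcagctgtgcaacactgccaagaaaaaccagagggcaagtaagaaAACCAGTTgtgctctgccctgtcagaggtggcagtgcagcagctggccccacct
The AP-1 letters begin 116 bases before the Ivl start and 48 bases before the Lor start, and the TATA letters 29 and 27 bases before them. Among 8 members with an entry, Ivl and Lor alone held the AP-1 letters, which 7.81% of 32851 promoters of this length hold. Lor, Ivl and Tgm3 held the TATA letters, present in 13.6% of promoters, and Tgm5 alone held the grainyhead letters, present in 2.09%. Evpl and Ppl were not among these sequences. A match is a description of the letters and not of binding.

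None of the 10 genes reached a limma adjusted p under 0.05, the threshold used throughout, against 2.46% of the 10682 genes tested. At adjusted p under 0.1, Ivl alone was included (5% of all genes), and at unadjusted p under 0.05 Ivl and Tgm5 were (16.9% of all genes). Log2 changes, experimental minus control on the log2(TPM + 1) scale, were above 0 for 6 members and below 0 for 4. In this fit 25.5% of all genes tested were above 0. After each library was centred on its median 7 members were above 0, and after quantile normalization 5. The median of all genes was 0.03 and 0.02 in those fits, so the share of 25.5% does not apply to them. The median of the 10 members was 0.10, beside -0.18 over all genes tested, and 0.31 beside 0.03 after centring. Experimental libraries lay wholly above control libraries for 1 member, Ivl (2.7% of all genes), and wholly below for 1, Tgm5 (9.94% of all genes). The groups overlapped for the other 8.

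**Figure D1:**
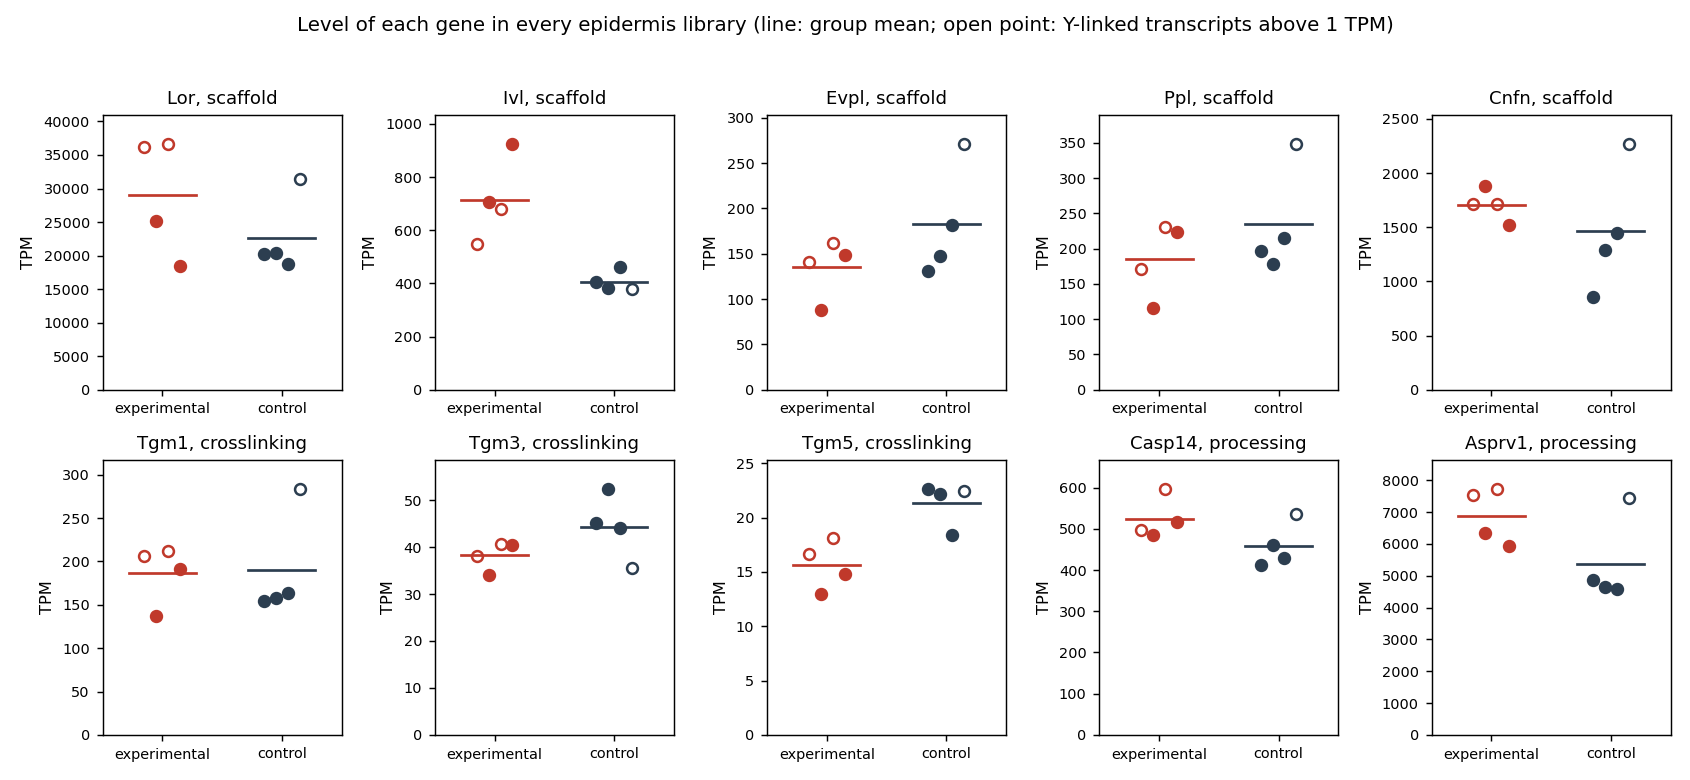
TPM of each of the 10 genes in every library, 4 experimental points left of 4 control points, with the group mean as a line and linear axes from 0. Points do not overlap between groups only for Ivl, higher in experimental libraries, and Tgm5, lower; open points are the 3 libraries with Y-linked transcripts, which are the 3 highest for Lor, Tgm1 and Asprv1.

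Involucrin, the glutamine-rich early scaffold protein, had the largest change of the 10. Ivl (ENSMUSG00000049128.7; chromosome 3, 92570902 to 92573735, minus strand, GRCm38; 468 codons) read 548, 707, 681 and 924 TPM in experimental libraries 1 to 4, against 406, 381, 463 and 377 TPM in control libraries 1 to 4. Every experimental library was above every control, and experimental library 4 was the highest. The means were 715 ± 156 TPM in experimental and 407 ± 39.5 TPM in control libraries (SD, n = 4 each), a 1.76-fold higher level. The log2 change of 0.79 (SE 0.20, 95% interval 0.36 to 1.23) did not pass over all genes (limma adjusted p = 0.065). The exact permutation test over libraries gave two-sided p = 0.0286, the smallest that 4 against 4 allow. That p was not adjusted over the 10 members. Ivl passed when each library was centred on its median (log2 change 1.00, limma adjusted p = 0.031), when values were quantile-normalized (0.93, limma adjusted p = 0.0373) and without control libraries 3 and 4 (0.83, limma adjusted p = 0.0238), which keeps the controls with the highest basal and cell cycle markers. In those fits 2.65%, 2.52% and 2.25% of all genes were called higher. Without experimental libraries 2 and 4, the pair with the higher mitochondrial share, its log2 change was 0.59 (limma adjusted p = 0.468). Without control libraries 1 and 2 it was 0.75 (limma adjusted p = 0.112). No fit that left out 1 library passed (limma adjusted p = 0.0574 to 0.171). Ivl passed in 5 of 21 alternatives, and over all of them the limma adjusted p ran between 0.00171 and 0.468.

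Loricrin, the glycine-rich protein that makes up most of the envelope's mass, was the most or among the most abundant transcripts of the tissue, ranked 1 to 5 in every library. Lor (ENSMUSG00000043165.7; chromosome 3, 92080271 to 92083142, minus strand; 486 codons) read 36156, 25166, 36596 and 18412 TPM in experimental libraries, against 20279, 20322, 18672 and 31438 TPM in control libraries. These values took 2.21% to 4.34% of the listed TPM in experimental libraries and 2.23% to 3.72% in control libraries. Experimental library 4 was the lowest of all 8 and control library 4 stood above 2 experimental libraries, so the groups overlapped. On the log2 scale the change was 0.34 (SE 0.31, 95% interval -0.36 to 1.03, limma adjusted p = 0.605). Centring gave 0.55 (limma adjusted p = 0.464) and quantile normalization gave -0.21 (limma adjusted p = 0.702). Quantile normalization gives equal values at equal rank. Lor ranked 1, 3, 1 and 5 in experimental and 1, 2, 1 and 1 in control libraries. With these ranks the quantile-normalized change could only lie below 0, so it does not give the direction in TPM. The 3 libraries with Y-linked transcripts were the 3 highest for Lor, at 31438 to 36596 TPM, against 18412 to 25166 TPM in the 5 without. With a term for these transcripts, added after the data were seen, the log2 change of Lor was 0.16 (limma adjusted p = 0.763), while Ivl passed in that fit (0.86, limma adjusted p = 0.0265), in which 1.19% of all genes were called higher.

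Envoplakin and periplakin, plakin-family proteins that form heterodimers beneath the membrane and anchor the first envelope layer to keratin and desmosomes, varied together and did not differ between groups beyond their spread. Evpl (ENSMUSG00000034282.3; chromosome 11, 116220559 to 116238077, minus strand; 2035 codons) read 141, 88.0, 161 and 149 TPM in experimental libraries, against 131, 148, 182 and 271 TPM in control libraries. Ppl (ENSMUSG00000039457.4; chromosome 16, 5086291 to 5132421, minus strand; 1754 codons) read 171, 116, 231 and 224 TPM in experimental libraries, against 197, 178, 215 and 348 TPM in control libraries. For both genes experimental library 2 was the lowest of the 8 and control library 4 the highest. Log2 changes were -0.42 (SE 0.27, 95% interval -1.01 to 0.18) for Evpl and -0.33 (SE 0.28, 95% interval -0.95 to 0.28) for Ppl, with limma adjusted p = 0.456 and 0.56. Without control libraries 3 and 4 these were -0.08 and -0.06, and without control libraries 1 and 2 they were -0.75 and -0.61, none of them past the threshold (limma adjusted p = 0.157 to 0.874). Hair follicle markers were highest in control library 4 as well, and their part in these values was not tested.

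The ratio of Evpl to Ppl stayed within a narrow range, 0.824, 0.756, 0.699 and 0.666 in experimental libraries and 0.668, 0.834, 0.845 and 0.778 in control libraries. The ratio of Ivl to each plakin partner did not overlap between groups, but Ivl by itself did not overlap either. The mean TPM of Evpl and of Ppl was lower in experimental libraries, so these ratios partly restate the values above. For what share of all genes a ratio to Ivl does not overlap was not computed. Ivl exceeded Evpl 3.88-fold to 8.03-fold in experimental libraries and 1.39-fold to 3.09-fold in control libraries, and it exceeded Ppl 2.95-fold to 6.07-fold in experimental libraries and 1.08-fold to 2.15-fold in control libraries. A ratio within a library does not change with the scaling of that library, and shows unequal levels of the pair, not which of them moved. These were among 9 ratios chosen after the values were seen and are given without a test. Those of Ivl to Lor (0.0151 to 0.0502 in experimental and 0.012 to 0.0248 in control libraries) and Ivl to Cnfn overlapped.

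**Figure D2:**
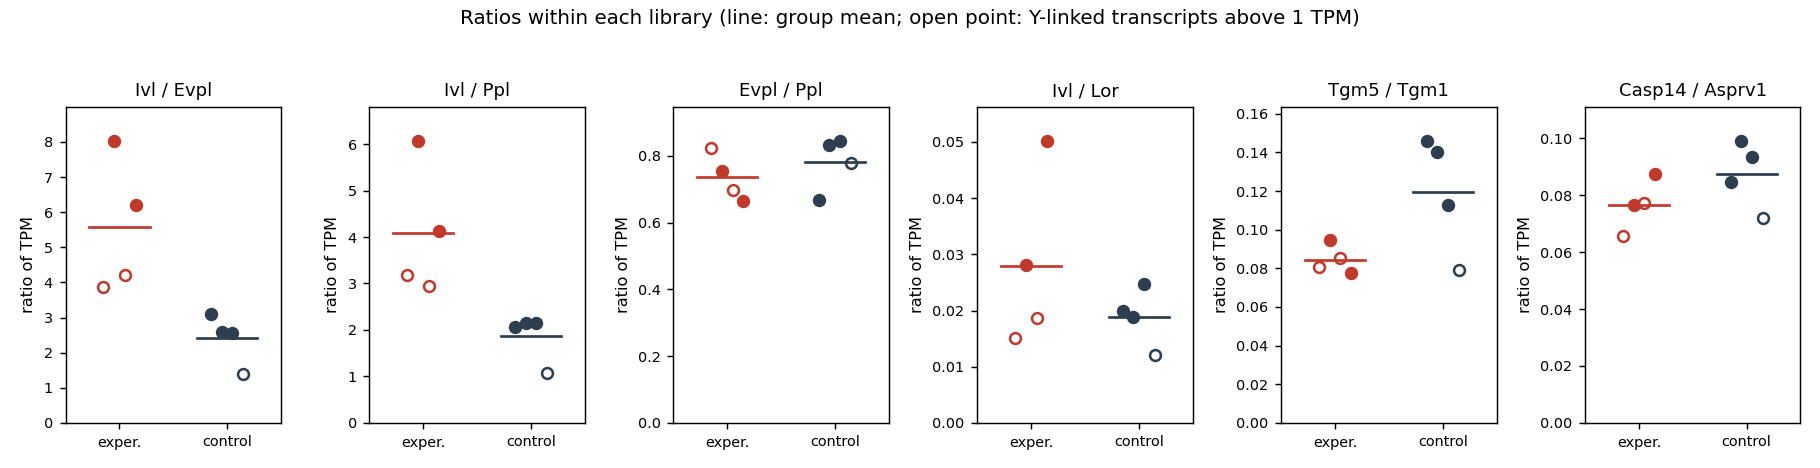
Ratios of TPM between pairs of the 10 genes in every library, 4 experimental points left of 4 control points, with group means as lines and linear axes from 0. Ivl over Evpl and Ivl over Ppl do not overlap between groups, whereas Evpl over Ppl spans 0.666 to 0.845 across all 8 libraries; open points are the 3 libraries with Y-linked transcripts.

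Cornifelin, a small cysteine-rich protein of the mature envelope, was the steadiest scaffold transcript among experimental libraries and the most variable among controls. Cnfn (ENSMUSG00000063651.11; chromosome 7, 25367620 to 25369724, minus strand; 124 codons) read 1718, 1881, 1715 and 1519 TPM in experimental libraries, against 852, 1294, 1449 and 2266 TPM in control libraries. Its coefficient of variation was 8.67% over experimental and 40.3% over control libraries. All 4 experimental values lay above control libraries 1, 2 and 3 and below control library 4. The change on the log2 scale was 0.30 (SE 0.28, 95% interval -0.31 to 0.92, limma adjusted p = 0.597). It reached 0.70 without control libraries 3 and 4 (limma adjusted p = 0.0367) and -0.09 without control libraries 1 and 2 (limma adjusted p = 0.872), so the choice of controls decided its sign and its call.

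The transglutaminases ranked in the order Tgm1, Tgm3, Tgm5 in every library. Tgm1, the membrane-anchored enzyme whose loss causes lamellar ichthyosis in humans, had nearly the same mean in both groups. The gene (ENSMUSG00000022218.16; chromosome 14, 55700009 to 55713926, minus strand; 815 codons) read 207, 137, 212 and 192 TPM in experimental libraries, against 155, 158, 163 and 283 TPM in control libraries. The means were 187 ± 34.5 TPM in experimental and 190 ± 62.4 TPM in control libraries (SD, n = 4 each). The fitted log2 change, which averages log values, was 0.01 (SE 0.24, limma adjusted p = 0.993), opposite in sign to the slightly lower experimental mean of TPM. The 95% interval of -0.52 to 0.54 still allows a change of that size either way. Control library 4 was far above the other controls, and 3 of 4 experimental values lay between it and them. As for Lor, the 3 libraries with Y-linked transcripts were the 3 highest (207 to 283 TPM, against 137 to 192 TPM in the 5 without).

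Tgm3, a soluble enzyme that is activated by proteolysis and also crosslinks proteins of the hair follicle, was close between groups. It (ENSMUSG00000027401.9; chromosome 2, 130012349 to 130050399, plus strand; 693 codons) read 38.1, 34.1, 40.7 and 40.5 TPM in experimental libraries, against 45.2, 52.3, 44.1 and 35.6 TPM in control libraries. Control library 4, the library with the highest hair marker level, was the lowest control for Tgm3, and all 4 experimental libraries lay below the other 3 controls. Its log2 change was -0.19 (SE 0.17, 95% interval -0.56 to 0.17, limma adjusted p = 0.572), close to the median of all genes, and 0.02 after centring (limma adjusted p = 0.948).

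Tgm5, an epidermal enzyme whose loss causes acral peeling skin in humans, was the least abundant member. It (ENSMUSG00000053675.8; chromosome 2, 121046111 to 121085841, minus strand; 724 codons) read 16.7, 12.9, 18.1 and 14.8 TPM in experimental libraries, against 22.6, 22.1, 18.4 and 22.4 TPM in control libraries. Every experimental library was below every control, though experimental library 3 and control library 3 nearly met. The means were 15.6 ± 2.24 TPM in experimental and 21.4 ± 2.01 TPM in control libraries (SD, n = 4 each). On the log2 scale the change was -0.43 (SE 0.17, 95% interval -0.80 to -0.07), which did not pass over all genes (limma adjusted p = 0.213). The exact permutation test gave two-sided p = 0.0286, not adjusted over the members. Centring, which added 0.21 to the log2 change of the median gene, brought it to -0.22 (limma adjusted p = 0.426). The ratio of Tgm5 to Tgm1 was 0.0774 to 0.0946 in experimental libraries and 0.0792 to 0.146 in control libraries, and these overlapped through control library 4 alone.

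Both processing enzymes had log2 changes above 0, and their groups overlapped. Caspase-14, a protease of cornifying cells that takes part in breaking filaggrin down, is encoded by Casp14 (ENSMUSG00000005355.9; chromosome 10, 78711991 to 78718294, minus strand; 257 codons). It read 496, 485, 596 and 517 TPM in experimental libraries, against 413, 460, 429 and 535 TPM in control libraries. All 4 experimental values were above control libraries 1 to 3, and control library 4 stood within their range. The change on the log2 scale was 0.19 (SE 0.17, 95% interval -0.18 to 0.56, limma adjusted p = 0.579).

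Asprv1, also known as SASPase, is a retroviral-like aspartic protease of the granular layer that cuts the linkers of profilaggrin. Its single-exon gene (ENSMUSG00000033508.7; chromosome 6, 86628164 to 86629710, plus strand; 339 codons) was the second most abundant member in every library. It read 7546, 6334, 7709 and 5929 TPM in experimental libraries, against 4867, 4640, 4594 and 7425 TPM in control libraries. All 4 experimental values exceeded control libraries 1 to 3, and control library 4 was above 2 of them. Its log2 change was 0.38 (SE 0.24, 95% interval -0.15 to 0.90, limma adjusted p = 0.447). The exact permutation test gave two-sided p = 0.0857, not adjusted over the members. Values were 7425 to 7709 TPM in the 3 libraries with Y-linked transcripts and 4594 to 6334 TPM in the 5 without. Among those 5 libraries alone the log2 change was 0.38 for Asprv1 (limma adjusted p = 0.459) and 0.12 for Lor (limma adjusted p = 0.826), beside 0.38 and 0.34 over all 8, and the term for Y-linked transcripts gave 0.26 for Asprv1 (limma adjusted p = 0.52). All 3 libraries with Y-linked transcripts lay above all 5 others for 3 members, Lor, Tgm1 and Asprv1, and for 1.54% of all genes tested. The labels give no sex, and the part of these libraries in the results beyond the fits given here was not tested.

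**Figure D3:**
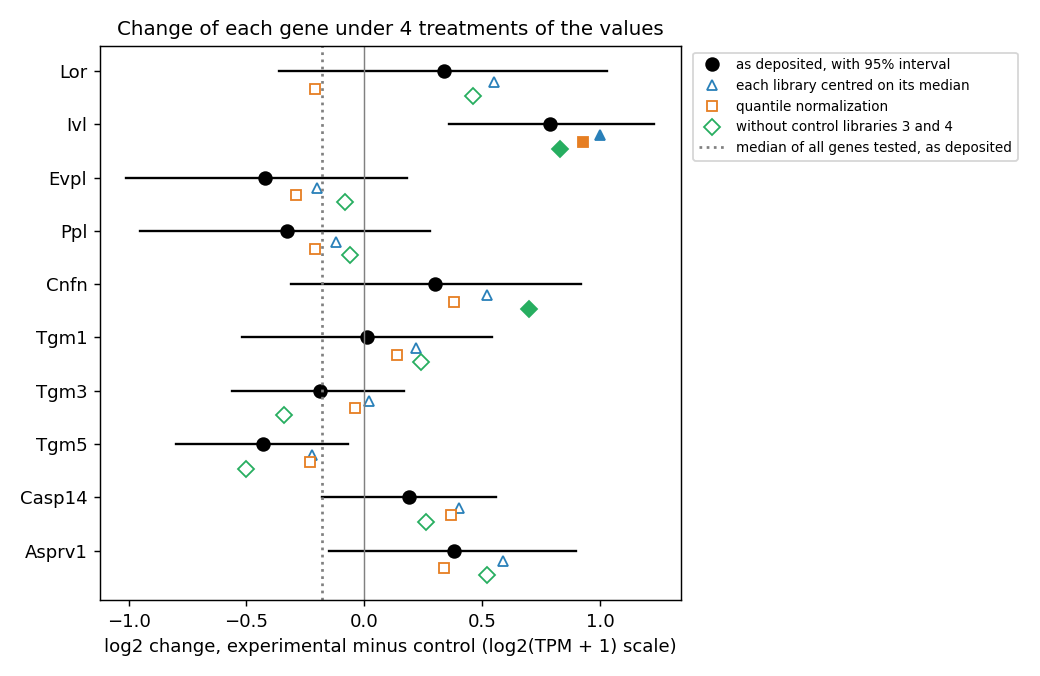
Log2 change of each gene, experimental minus control on the log2(TPM + 1) scale, with its 95% interval from limma (black), and the same change after centring, after quantile normalization and without control libraries 3 and 4 (filled where adjusted p was under 0.05). Only Ivl is filled after both scalings, and the dotted line marks the median gene at -0.18. Tgm3 changes sign with centring, and Lor with quantile normalization, which keeps only its rank near the top of each library.

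Library weights gave another picture. Estimated by limma, they ranged between 0.154 for control library 4 and 7.43 for control library 2, so the weighted comparison rested largely on a single control. Under these weights 5 members were called higher (7% of all genes), namely Lor, Ivl, Cnfn, Tgm1 and Asprv1, and 2 were called lower (34.4% of all genes), namely Tgm3 and Tgm5. Among these, Ivl had a log2 change of 0.81 (limma adjusted p = 0.00171) and Asprv1 0.61 (limma adjusted p = 0.00623).

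Mean levels over all 8 libraries ran between 18.5 TPM for Tgm5 and 25880 TPM for Lor. Lor, Asprv1 and Cnfn kept this order in 8 of 8 libraries, and each exceeded Ivl. Ivl and Casp14 did not keep an order: Ivl was above Casp14 in 4 of 4 experimental libraries, while Casp14 was above Ivl in 3 of 4 control libraries. Ppl was above Tgm1 in 6 of 8 libraries and Tgm1 above Evpl in 7 of 8, so Tgm1 did not keep its place between them. Ppl was above Evpl in every library, with ratios of Evpl to Ppl of 0.666 to 0.845. Tgm3 was below Evpl and above Tgm5 in 8 of 8.

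Given as a description over the 8 libraries, Pearson's r on the log2(TPM + 1) scale was 0.951 between Evpl and Ppl, 0.830 between Ppl and Tgm1, 0.897 between Lor and Asprv1, and 0.845 between Asprv1 and Casp14. Ivl and Tgm5 ran opposite to each other (r = -0.863), and r between Ivl and Lor was 0.037. Among 7448 genes with a mean of at least 5 TPM, the named genes outside the set most like Evpl were Ranbp10, Cisd2 and Trpv3 (r = 0.994, 0.994 and 0.991), and those most like Ppl were Eps8l2, Snx13 and Sidt2 (r = 0.990, 0.989 and 0.989). Asprv1 was most like the late envelope genes Lce1d, Lce1c and Lce1a1 (r = 0.989, 0.983 and 0.982). Ivl was most like Hk2, Elf3 and Olah (r = 0.982, 0.977 and 0.976), and Tgm1 most like Lrp10, Slc52a3 and F11r (r = 0.987, 0.977 and 0.976). Tgm3 was most like Stard5 (r = 0.979) and Tgm5 most like Ap1m2 (r = 0.987). Lor was most like Dexi and the Y-linked Eif2s3y (r = 0.952 and 0.924), Casp14 most like Dhcr7 (r = 0.931) and Cnfn most like Endou (r = 0.893). All these values share the same libraries and group difference.

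Genes that act with the 10 were read from 8 lists, beside shares of 0.917% called higher and 1.54% called lower among all genes. Experimental libraries lay wholly above control libraries for 2.7% of all genes and wholly below for 9.94%. Where no gene of a list passed, the 2 of smallest p are named, so groups that do not overlap are likely among them. Of 7 filaggrin-family substrates, 1 rose and none fell, with a median log2 change of 0.04. The rise was in Rptn, which encodes the envelope protein repetin, at 138, 80.0, 81.9 and 130 TPM in experimental libraries and 12.2, 9.51, 10.2 and 18.8 TPM in control libraries (log2 change 2.99, limma adjusted p = 0.000442). Flg, the profilaggrin gene itself, named here after its values were seen, read 16696 to 20775 TPM in experimental and 14567 to 20982 TPM in control libraries (log2 change 0.14, limma adjusted p = 0.789). Of 14 other filaggrin-processing genes none passed, with a median of -0.21. Nearest was Blmh, bleomycin hydrolase, which degrades filaggrin peptides after caspase-14, at 561, 517, 649 and 624 TPM in experimental libraries, all above the 381, 369, 369 and 352 TPM of control libraries (log2 change 0.67, limma adjusted p = 0.0566). Klk5, a desquamation protease, read 410 to 551 TPM in experimental and 623 to 672 TPM in control libraries (limma adjusted p = 0.272).

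Among 31 tested genes for other envelope substrates and corneocyte proteins, 2 rose and 1 fell, with 22 log2 changes above 0, 9 below, and a median of 0.40, where 25.5% of all genes were above 0 and their median was -0.18. The small proline-rich gene Sprr1b rose (271 ± 116 TPM in experimental and 26.2 ± 8.77 TPM in control libraries), as did the late envelope gene Lce6a (1215 ± 84.5 and 655 ± 142 TPM), and the calmodulin-like Calml3 fell (163 ± 50.6 and 466 ± 20.9 TPM; SD, n = 4 each). Their limma adjusted p were 0.000734, 0.0417 and 0.00847. Among 5 plakin relatives none passed. Eppk1, epiplakin, lay above all controls in every experimental library (12.5 to 25.1 TPM, against 10.6 to 12.0 TPM; limma adjusted p = 0.0983), and desmoplakin, Dsp, read 449 ± 103 TPM in experimental and 538 ± 49.7 TPM in control libraries (SD, n = 4 each; limma adjusted p = 0.508).

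Of 6 genes that activate transglutaminases by proteolysis or restrain that step, none passed. Ctsl, cathepsin L, read 562, 384, 582 and 556 TPM in experimental libraries and 261, 276, 266 and 558 TPM in control libraries (log2 change 0.68, limma adjusted p = 0.232), and Lgmn, legumain, read 5.36 to 11.2 TPM in experimental libraries, all below the 12.0 to 33.4 TPM of control libraries (limma adjusted p = 0.163). Control library 4 was again the control that stood with the experimental libraries for Ctsl. Of 6 other transglutaminase genes only Tgm6 was tested, at 6.30 ± 3.45 TPM in experimental and 16.8 ± 12.5 TPM in control libraries (SD, n = 4 each; limma adjusted p = 0.291). Tgm4, Tgm7, F13a1 and Epb42 were listed at 0 in all 8 libraries.

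Of 12 genes for attaching the lipid envelope to these proteins none passed, with a median log2 change of 0.25. Alox12b, the lipoxygenase that oxidizes ceramides before they are bound to the envelope, read 207, 173, 250 and 216 TPM in experimental libraries, all above the 134, 121, 132 and 142 TPM of control libraries (log2 change 0.66, limma adjusted p = 0.066). Cers3, a ceramide synthase, overlapped (103 to 134 TPM in experimental and 69.2 to 115 TPM in control libraries; limma adjusted p = 0.159). Among 24 tested regulators of envelope genes, Grhl3 rose (79.8 ± 19.8 TPM in experimental and 33.6 ± 3.14 TPM in control libraries; limma adjusted p = 0.0156) and Grhl1 fell (61.4 ± 13.8 and 178 ± 36.5 TPM; SD, n = 4 each; limma adjusted p = 0.0077). Both are grainyhead-like factors of barrier epithelia, and Grhl3 is known to activate Tgm1 in mouse epidermis. Without control libraries 3 and 4, 9 genes of the envelope substrate list and 3 of the lipid envelope list were called higher (2.25% of all genes). Without control libraries 1 and 2 these counts were 3 and 0 (1.95% of all genes), and without experimental libraries 2 and 4 both were 0, in a fit that called 0.13% of all genes higher.

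**Figure D4:**
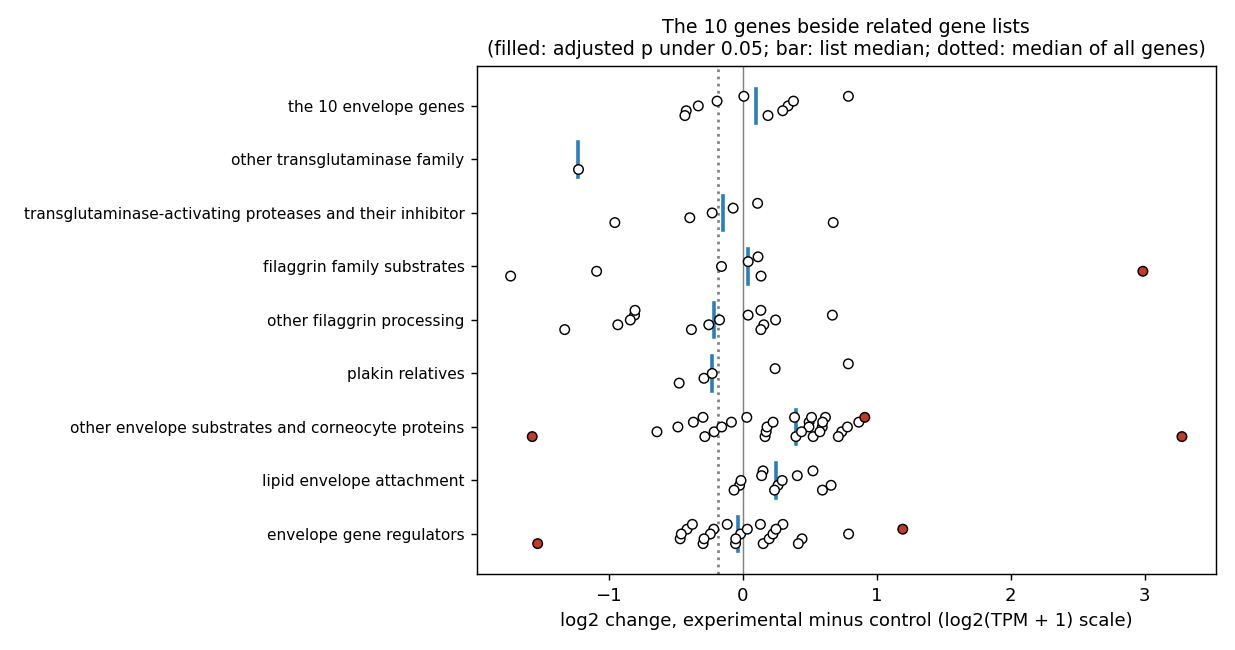
Log2 change, experimental minus control on the log2(TPM + 1) scale, of the 10 genes and of the tested genes of 8 related lists (1 point a gene, filled where adjusted p was under 0.05, blue bar at the list median, dotted line at the median gene). None of the 10 is filled and they span -0.43 to 0.79, while Rptn and Sprr1b, at 2.99 and 3.28, lie farthest to the right.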

How the data were processed

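Per the labels' protocols, RNA from back-skin epidermis was purified with an RNeasy Mini Plus kit and made into NEBNext Ultra libraries. Tools in the submitters' processing notes are Salmon 0.14.0, STAR, DESeq and SAMtools 1.9, with mm10 and GRCm38 as builds, and the series' design text names DESeq2 for expression and MAJIQ for splicing. The deposited expression values were taken to be on the log2 scale of TPM, a 0 standing for 1 TPM or less, since entries just above 0 did not pile up (2580 between 0 and 0.25 and 2952 between 0.75 and 1.00 on the log2 scale). Of 21690 identifiers, 21662 matched a symbol. Columns name a group but no replicate number of the labels, so numbers 1 to 4 are names in table order and libraries were not paired. The labels call them biological replicates and do not say which pups shared a litter.

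Values were turned back to TPM (at least 1) and tested as log2(TPM + 1), which understates changes of low genes, for genes with mean TPM of at least 1 (entries listed at 0 taken as 0). All 10 members passed this filter. Limma 3.58.1 in R 4.3.3 was fitted to all 8 libraries without covariates beside the group (trended eBayes, two-sided, Benjamini-Hochberg over 10682 genes) and was tested on simulated data. Single genes were also compared by exact permutation over libraries, with p not adjusted over the members. Python 3.11.15, pandas 2.3.3, numpy 2.4.6, scipy 1.17.1 and matplotlib 3.10.9 were used, with GENCODE positions (GRCm38) and RefSeq promoters. The members, lists and alternatives were chosen with earlier results of these data known. Named genes were the 10 members, for each list up to 4 passing genes (where none passed, the 2 with the smallest p), and for likeness the 3 genes of highest r per member, passing over genes named only by a clone or model number.

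In the authors' deposited differential expression table the values are a mean normalized count signal, a log2 fold change and a p-value, raw and adjusted, per the file headers. The authors' deposited MAJIQ table gives PSI as a fraction per group and the expected difference of PSI as a score, per the file headers.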

Additional observations from a re-analysis of the deposited data

Results flagged for a closer look

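A sample far from the other 3 of its group was found in 5 of 38 groups examined (10 genes and 9 ratios, in experimental and control libraries). Chance alone gives about 1 in 20 such groups on average, but these groups are not independent. They share libraries, and the ratios share genes, so 1 library can be flagged several times. Of the 5, 4 concerned control library 4. It read 31438 TPM for Lor, against 18672 to 20322 TPM in the other controls. For Tgm1 it read 283.1 TPM, against 154.8 to 163.3 TPM, and for Asprv1 7425 TPM, against 4594 to 4867 TPM. The ratio of Ivl to Ppl was 1.084 there and 2.061 to 2.153 in the other controls. The remaining one was Tgm5 in control library 3, at 18.39 TPM, against 22.15 to 22.59 TPM in the other controls. Control library 4 also had the highest hair marker level and was the only control with Y-linked transcripts above 1 TPM; the part of either in these values was not tested.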

How the results depend on the processing

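Of 210 pairs of a member and an alternative, 186 kept the direction and the side of the threshold, 12 kept the direction and passed the threshold, and 12 changed sign. The main count of 263 genes past the threshold became 119 with no filter on low values, 534 at adjusted p under 0.1, 4423 with library weights, 2595 without control libraries 3 and 4, 544 without control libraries 1 and 2, 15 without experimental libraries 2 and 4, 552 with a term for Y-linked transcripts, and 81 without the 3 libraries that hold them; these last pair were chosen after seeing the data. Leaving out 1 library gave 85 to 578 genes and no member. Members called higher numbered 0 in the main analysis, 1 with centring, 1 with quantile normalization, 1 with the Y-linked term, 1 at adjusted p under 0.1, 2 without control libraries 3 and 4, and 5 with library weights; members called lower numbered 0, and 2 with library weights. Signs changed for Lor with quantile normalization (-0.21), Ppl with library weights (0.14), Cnfn without control libraries 1 and 2 (-0.09), Tgm3 with centring (0.02), and Tgm1 with the Y-linked term (-0.14), without control libraries 1 and 2 (-0.22) and on leaving out 1 library, which gave -0.07 to 0.21 and was below 0 in 6 of 8 cases (-0.07, -0.07, -0.05, -0.05, -0.06 and -0.01). For Lor the sign after quantile normalization follows from its ranks near the top of each library. For Tgm3 the sign after centring follows from the shift of 0.21 that centring adds to every gene's log2 change, from -0.19 in the main analysis. Tgm1 had a main log2 change of 0.01, so a small shift is enough to change its sign. The cause of the other sign changes was not tested. No paired analysis was possible because the columns carry no replicate number of the labels. TPM keeps no depth, so no counting error could be given; 4 libraries a group and the spread among controls limit the precision.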

Other observations

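None of the 10 members is among the 748 genes of the authors' deposited differential expression table, which holds 4.72% of the genes tested here. All of its log2 fold changes are below 0, so it holds no gene above 0. The members are also not among the 236 genes of the authors' deposited MAJIQ table. That is a small number beside the 21690 genes of the expression table, so their absence says little about their splicing. Of the transglutaminase relatives, the authors' deposited table lists Tgm2 with a log2 fold change of -1.92 (adjusted p = 5.23e-09) and Tgm7 with -1.74 (adjusted p = 0.000151). In the TPM values Tgm2 was listed at 0 in all 4 experimental libraries, against 2.26, 2.48, 0 and 1.54 TPM in control libraries. It was under the filter on low values. Tgm7 was listed at 0 in all 8 libraries, so the TPM values hold no level to set beside its deposited change. The log2 fold changes of the authors' deposited table run the same way as the experimental minus control changes here: all 504 of that table's genes that were tested here were lower in experimental libraries. Among genes of the related lists, Grhl1, Macf1 and Anxa1 had splicing entries. For Grhl1, the authors' deposited MAJIQ table gives the junction into a cassette exon on chromosome 12, 24581718 to 24582885, a PSI of 0.115 in experimental and 0.803 in control epidermis. Macf1 encodes a spectraplakin related to the plakins. For its junction on chromosome 4, 123361027 to 123364057, the authors' deposited MAJIQ table holds separate entries with unlike PSI (share of reads at the splice site). The spliced entry gives 0.305 in experimental and 0.845 in control epidermis, and the intron entry beside it 0.695 and 0.155. Another entry of the same junction gives 0.025 in experimental and 0.307 in control epidermis. For Anxa1, annexin A1, an envelope constituent, the authors' deposited MAJIQ table gives the junction on chromosome 19, 20384772 to 20390612, a PSI of 0.589 in experimental and 0.882 in control epidermis.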
